A study of Mus musculus with 5 samples.

Results

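The circadian clock genes examined here are Arntl (also called Bmal1), Clock, Npas2, Per1, Per2, Per3, Cry1, Cry2, Nr1d1 and Dbp. They were taken by name as core genes of the clock, and all 10 were found by symbol among the 49671 genes of the deposited counts. Each had enough counts to be among the 14880 genes tested. The samples were whole hearts of C57BL6/J mice at postnatal day 2, sequenced as polyA RNA from 3 CharmeWT pools of 9 hearts and 2 CharmeKO pools of 3 hearts. Charme is a muscle long noncoding RNA, and the CharmeKO mice carry an inserted PolyA signal in its locus, while CharmeWT hearts came from their wild-type littermates. Since CharmeWT pools held more hearts than CharmeKO pools, pool size and genotype cannot be told apart. The time of day at which hearts were collected is not given in the sources used here, and its part in the values below was not tested.

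The clock is a feedback loop of transcription. ARNTL pairs with CLOCK, or with its relative NPAS2, and switches on genes through E-box sequences, among them the Per and Cry genes, whose proteins return to block that pair. NR1D1 (REV-ERB alpha) is made in the same wave and represses Arntl through RORE sequences, and DBP, another product of the wave, drives further genes through D-box sequences. In the adult heart Arntl and Npas2 are known to peak opposite to Dbp, Nr1d1 and the Per genes, and in rodents the heart clock is known to mature only after birth. In pooled bulk tissue, fewer cells of a type and less RNA per cell cannot be told apart.

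Some members carry such elements near their start, and those stretches are shown so that the letters behind each match can be read. RefSeq promoter windows on GRCm38.p6, from 250 bases before each start to 50 bases from it, were found for 9 of the 10 members, the exception being Per2. They were searched on both strands for the E-box CACGTG, the D-box TTATGTAA or TTACGTAA, the RORE-like TAGGTCA and the cyclic AMP element CRE, TGACGTCA. None of these motifs overlaps another in the windows of the members. Of all 32851 RefSeq windows of the same length, 7.15% held the E-box, 1.06% the D-box, 2.61% the RORE-like motif and 1.79% the CRE. Matches were found for 4 of the 9 members with a window: the E-box in Per1 and Cry1, the RORE-like motif in Arntl and the D-box, at 2 places, in Per3. These 9 members had 13 windows, so some had more than 1 window to match, while the shares above count single windows. Windows with 2 or more D-boxes made up 0.0244% of all windows. The matches are printed 5′ to 3′ on the strand of the gene, with the motif in capitals. Nfil3, a repressor that binds D-boxes, is added because its RORE-like match lies next to its start, here on the other strand, where it reads TGACCTA.
Per3, chr4:151044796-151044890, minus strand: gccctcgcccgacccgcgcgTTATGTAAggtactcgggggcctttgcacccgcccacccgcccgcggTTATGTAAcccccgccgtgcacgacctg
Per1, chr11:69098771-69098800, plus strand: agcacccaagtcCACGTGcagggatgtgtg
Cry1, chr10:85185097-85185126, minus strand: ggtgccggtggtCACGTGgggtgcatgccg
Arntl, chr7:113207530-113207558, plus strand: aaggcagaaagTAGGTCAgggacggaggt
Nfil3, chr13:52981034-52981062, minus strand: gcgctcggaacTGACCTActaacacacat
The 2 D-boxes of Per3 begin 205 and 158 bases before its start, and the E-boxes of Per1 and Cry1 begin 166 and 60 bases before theirs. The Arntl match begins 30 bases after the later of its 2 RefSeq starts. A match describes letters in a window and is not a measured binding site, and the windows of Clock, Npas2, Cry2, Nr1d1 and Dbp held none of these letters.

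**Figure D1:**
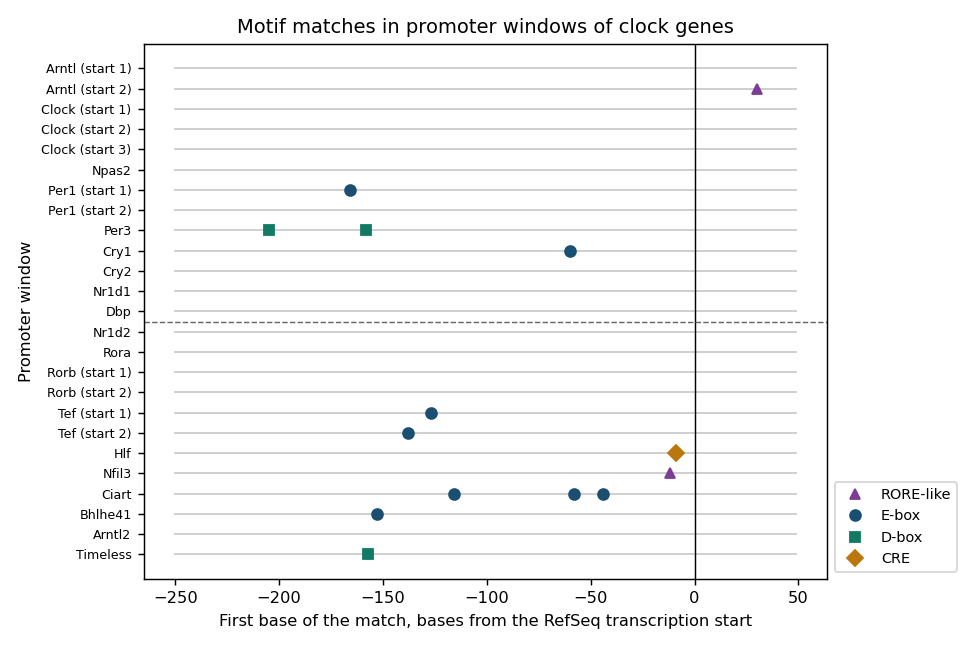
Each line is a RefSeq promoter window of a clock gene, drawn by distance in bases from the transcription start, with the members above the dashed line and other transcriptional regulators of the clock below it. Symbols mark the first base of each motif match, with 2 D-boxes in Per3 and 3 E-boxes in Ciart.

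Depth and sample identity were examined before the clock. Counts on genes ranged from 16721055 to 21646378 per pool. Charme itself had 810, 183 and 276 counts in CharmeWT pools 1 to 3 and 57 and 79 counts in CharmeKO pools 1 and 2. All 10 cardiomyocyte markers were well expressed, with summed levels from 46593 to 57632 CPM (counts scaled to library size by TMM) in CharmeWT and 53116 and 58411 CPM in CharmeKO pools. The CharmeKO pools stood apart from each other. In CharmeKO pool 1, 21.1% of counts came from genes of the mitochondrial genome, against 9.68% to 11.1% in the other pools. CharmeKO pool 2 held 24965 CPM of salivary gland markers and pool 1 held 329 CPM, against at most 0.243 CPM in CharmeWT. Of these markers, 7 of the 7 tested were called higher. The rule for calls, stated with the comparison of genotypes below, called 2.05% of all genes tested. Bpifa2 and Smgc, secreted salivary proteins, had 0 counts in every CharmeWT pool. Proliferating cell markers summed to 311 to 465 CPM in CharmeWT and to 1576 and 927 CPM in CharmeKO pools 1 and 2, with 7 of 9 called. Brown adipose markers summed to 751 to 922 CPM in CharmeWT and to 1116 and 2264 CPM in CharmeKO pools, with 4 of 8 called. Fewer markers were called for erythroid cells (3 of 7), skeletal muscle (2 of 8) and lung epithelium (1 of 2), and none of those of endothelium, fibroblasts, macrophages or T cells. The lung list gene called was Epcam, with 2, 0 and 4 counts in CharmeWT and 20 and 1242 in CharmeKO pools 1 and 2. Sftpc, the other one tested, had 20, 1 and 2 counts in CharmeWT and 12 and 2 in CharmeKO pools. The part of these differences in the clock values was not tested.

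At this age the 10 clock genes were all detected, at low to moderate levels. Per length, as FPKM (fragments per kilobase of exon, scaled to library size), Dbp and Per1 were highest in CharmeWT hearts and Arntl lowest. The order by CharmeWT mean was Dbp, Per1, Nr1d1, Cry1, Cry2, Npas2, Clock, Per2, Per3 and Arntl. The means ran from 13.5 ± 5.40 FPKM (SD, n = 3) for Dbp, above 79.0% of the genes tested, to 1.62 ± 0.588 FPKM (SD, n = 3) for Arntl, above 31.2% of them. Each neighbouring pair in that order overlapped in range across the CharmeWT pools, so no member was set apart from the next. In CharmeKO hearts Per1 came first at 13.3 ± 4.13 FPKM (SD, n = 2), Dbp came after Nr1d1, and Per3 came last at 1.14 ± 0.0084 FPKM (SD, n = 2).

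**Figure D2:**
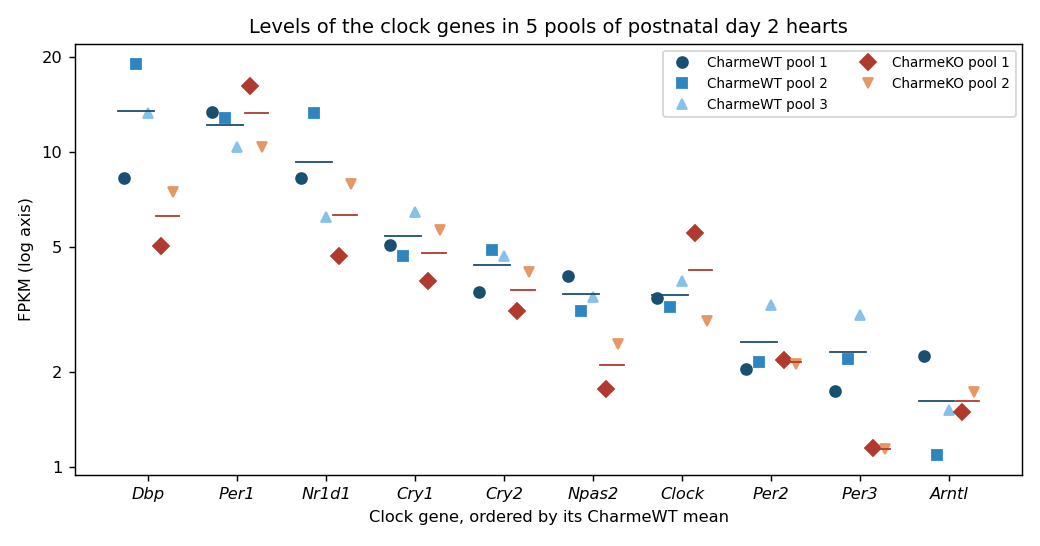
FPKM of each clock gene on a log axis, with 1 symbol per pool and short lines at the mean of the 3 CharmeWT pools and of the 2 CharmeKO pools. Both CharmeKO pools lie below all CharmeWT pools for Dbp, Npas2 and Per3, as for 18.2% of all genes tested, and the CharmeWT pools are farthest apart for Dbp, Nr1d1 and Arntl.

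The first question was how far the pools differed within a genotype. Dbp, a D-box activator and the strongest rhythmic output of many adult tissues, had 8.23, 19.0 and 13.2 FPKM in CharmeWT pools 1 to 3. Nr1d1, the repressor of Arntl, had 8.27, 13.3 and 6.20 FPKM in the same pools. Arntl, the activator, had 2.25, 1.09 and 1.51 FPKM. Pool 2 was thus the highest of the wild-type pools for Dbp and Nr1d1 and the lowest for Arntl. From the lowest to the highest CharmeWT pool the span was 2.31-fold for Dbp, 2.14-fold for Nr1d1 and 2.07-fold for Arntl. On the log2 scale these 3 spans exceeded 1, as they did for 10.6% of all genes tested, and they were wider than those of 93.1%, 91.3% and 90.4% of those genes. The median span over the 10 members was 0.57 among CharmeWT pools, against 0.37 over all genes tested, and 0.50 between the CharmeKO pools, against 0.43.

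The ratio of an output gene to Arntl within a library does not depend on scaling, though all ratios given here share Arntl as denominator. The FPKM ratio of Dbp to Arntl was 3.65 in CharmeWT pool 1 (95% counting interval 3.19 to 4.18), 17.4 in pool 2 (14.7 to 20.8) and 8.74 in pool 3 (7.53 to 10.1). It was 3.37 in CharmeKO pool 1 (2.74 to 4.14) and 4.28 in CharmeKO pool 2 (3.71 to 4.95). These intervals cover counting error only. Both CharmeKO pools were therefore near CharmeWT pool 1 and below the other CharmeWT pools, so the genotypes overlapped. For Nr1d1 to Arntl, CharmeWT pool 2 stood alone at 12.2, while the other 4 pools lay between 3.12 and 4.57. Per3 to Arntl split the pools another way, at 2.02 and 2.001 in CharmeWT pools 2 and 3 and at 0.772, 0.768 and 0.657 in CharmeWT pool 1 and CharmeKO pools 1 and 2. Per1 and Clock did not follow that split. Per1 to Arntl was 10.8 in CharmeKO pool 1 (9.17 to 12.8), near the 11.7 of CharmeWT pool 2 and above the 5.94 of CharmeWT pool 1, and it was 5.97 in CharmeKO pool 2. Clock to Arntl was 3.68 in CharmeKO pool 1, the highest of the 5 pools, against 1.52 in CharmeWT pool 1 and 1.67 in CharmeKO pool 2.

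**Figure D3:**
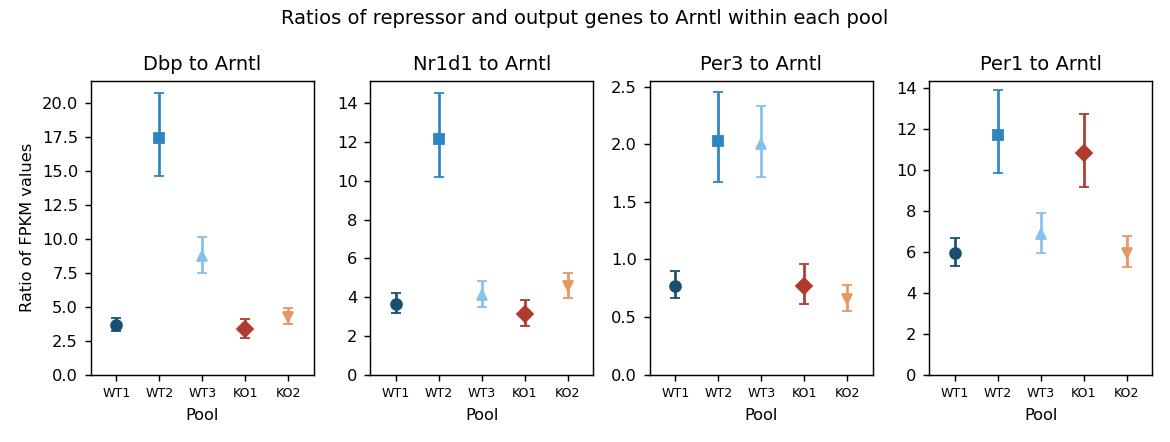
FPKM ratios of Dbp, Nr1d1, Per3 and Per1 to Arntl in each of the 5 pools, on linear axes from 0, with bars for the 95% counting interval. CharmeWT pool 2 has the highest ratio of Dbp (17.4) and Nr1d1 (12.2), while the CharmeKO pools lie close to CharmeWT pool 1 for Dbp, Nr1d1 and Per3 but CharmeKO pool 1 does not for Per1 (10.8 against 5.94).

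The same contrast can be put as the output and repressor genes (Per1, Per2, Per3, Nr1d1 and Dbp) minus the activators (Arntl, Npas2 and Clock), as mean log2 CPM after centring each gene on the CharmeWT pools. This difference was -0.47, 0.47 and 0.0011 in CharmeWT pools 1 to 3, and -0.46 and -0.26 in CharmeKO pools 1 and 2. The CharmeKO mean was lower by 0.36 than the CharmeWT mean, within the SD of 0.47 over the CharmeWT pools (n = 3). Both CharmeKO values lay inside the CharmeWT range. This difference does not separate the genotypes. The mean of the output and repressor genes alone was -0.59 and -0.47 in CharmeKO pools, below -0.24, 0.21 and 0.033 in CharmeWT pools. The mean of the activators was -0.13 and -0.21 in CharmeKO pools, within the CharmeWT range of -0.27 to 0.23. The genes of an arm did not move as a block: Per1 was highest in CharmeKO pool 1, where Dbp was lowest.

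The comparison of genotypes came next. By the quasi-likelihood test of edgeR, 0 of the 10 clock genes were called in CharmeKO against CharmeWT hearts, at an adjusted p under 0.1 with a mean of at least 1 FPKM in at least 1 genotype. The same rule called 2.05% of all genes tested. At an unadjusted p under 0.05 there were 3 of the 10, against 18.6% of all genes. Dbp, Per3 and Npas2 had both CharmeKO pools below every CharmeWT pool, and 18.2% of all genes did. No member had both CharmeKO pools above every CharmeWT pool, where 17.8% of all genes did. Fold changes were below 0 for 8 of the 10, against 48.2% of all genes, and the median was -0.23 against 0.02. With a correction for gene length and GC content, 5 of the 10 were below 0, against 48.7% of all genes, and their median was -0.046 against 0.010.

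Dbp had the widest spread of the 10 across the 5 pools. Its 8.23, 19.0 and 13.2 FPKM in CharmeWT pools faced 5.04 and 7.43 FPKM in CharmeKO pools 1 and 2. The groups did not overlap, but the gap between CharmeKO pool 2 and CharmeWT pool 1 was small beside the range within CharmeWT. The log2 fold change, CharmeKO over CharmeWT, was -1.11 (standard error, SE, 0.336, adjusted p = 0.155), or 2.15-fold lower; this and all adjusted p below are Benjamini-Hochberg values of the quasi-likelihood test over all genes unless another tool is named. Without CharmeWT pool 2 it was -0.78 (adjusted p = 0.382), in a fit that called 187 of 14751 genes.

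Per3, the PERIOD protein gene least needed for rhythm, was lower by about as much. It had 1.74, 2.21 and 3.03 FPKM in CharmeWT pools and 1.15 and 1.14 FPKM in CharmeKO pools, which were nearly equal. Its log2 fold change was -1.02 (SE 0.270, adjusted p = 0.121), or 2.03-fold lower, the smallest adjusted p among the members. Without CharmeKO pool 1 it was -1.03 and was called (adjusted p = 0.0908, in a fit that called 4.33% of genes tested). Without CharmeKO pool 2 it was -1.02 (adjusted p = 0.0386, in a fit that called 31.7%), so the value was the same with either CharmeKO pool. Without CharmeWT pool 3, the highest, it was -0.79 (adjusted p = 0.529), in a fit that called 0 of 14715 genes, with 1315 at an unadjusted p under 0.05.

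Npas2, whose protein can replace CLOCK as partner of ARNTL, had 4.02, 3.13 and 3.46 FPKM in CharmeWT pools and 1.77 and 2.45 FPKM in CharmeKO pools. The wild-type values were close together here, and both CharmeKO values lay below them. The log2 fold change was -0.74 (SE 0.247, adjusted p = 0.183), or 1.67-fold lower.

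Clock itself had 3.43, 3.22 and 3.90 FPKM in CharmeWT pools, with 5.51 FPKM in CharmeKO pool 1 and 2.90 FPKM in CharmeKO pool 2. The CharmeKO pools thus lay on opposite sides of the wild-type range, and the log2 fold change was 0.25 (SE 0.257, adjusted p = 0.612). The FPKM ratio of Clock to Npas2 ran from 0.853 to 1.13 in CharmeWT pools, was 1.18 in CharmeKO pool 2 and 3.11 in CharmeKO pool 1. CharmeKO pool 1 is the pool with 21.1% of counts from mitochondrial genes. Arntl had 1.497 and 1.73 FPKM in CharmeKO pools, inside its wild-type range, with a log2 fold change of -0.0028 (SE 0.308, adjusted p = 0.997).

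Nr1d1 had 4.67 and 7.93 FPKM in CharmeKO pools 1 and 2, of which only the former lay below the wild-type range of 6.20 to 13.3 FPKM. Its log2 fold change was -0.55 (SE 0.338, adjusted p = 0.403). The value rested on single pools, being -0.20 without CharmeWT pool 2 and -0.22 without CharmeKO pool 1. Exons of Nr1d1 overlap those of Thra over 263 bases, and those of Dbp overlap Sphk2 over 539 bases, in both cases on the opposite strand. Exons of Cry2 and Arntl also overlap those of opposite-strand genes, over 295 and 33 bases. The libraries were stranded and counted by strand, so reads of these neighbours were kept apart.

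The other PERIOD genes showed no separation. Per1, which responds quickly to light and hormones as well as to the clock, had 13.4, 12.8 and 10.4 FPKM in CharmeWT pools and 16.2 and 10.3 FPKM in CharmeKO pools (log2 fold change 0.12, SE 0.223, adjusted p = 0.793). Per2, a core repressor, had 2.04, 2.16 and 3.26 FPKM in CharmeWT and 2.19 and 2.13 FPKM in CharmeKO pools (log2 fold change -0.20, SE 0.264, adjusted p = 0.697). The 3 Per genes thus gave fold changes from -1.02 to 0.12, and the direction of Per1 and Per2 turned under some of the alternatives. A difference in direction between Per3 and Per1 was not tested.

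Cry1 and Cry2, the repressors that partner the PER proteins, did not separate the genotypes. Cry1 had 5.07, 4.66 and 6.45 FPKM in CharmeWT and 3.90 and 5.66 FPKM in CharmeKO pools (log2 fold change -0.17, SE 0.251, adjusted p = 0.738). Cry2 had 3.59, 4.88 and 4.67 FPKM in CharmeWT and 3.13 and 4.16 FPKM in CharmeKO pools (log2 fold change -0.26, SE 0.226, adjusted p = 0.549). In both genes CharmeKO pool 1 was the lowest of the 5 pools and CharmeKO pool 2 lay within the wild-type range.

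The outcome moved with the test and with CharmeKO pool 2. The likelihood ratio test, which the study's methods name, called Per3 (adjusted p = 0.0268) and Dbp (0.0501), 2 of the 10, while calling 6.27% of all genes. DESeq2 called Per3 (0.0151), Dbp (0.0247) and Npas2 (0.0895), with 7.54% of all genes called. Without CharmeKO pool 2 the quasi-likelihood test called 5 members, in a fit that called 31.7% of the genes tested. Dbp (log2 fold change -1.42), Per3 (-1.02), Npas2 (-1.005) and Nr1d1 (-0.99) were then lower and Clock (0.64) higher in the remaining CharmeKO pool, whose variation was taken to be like that of the CharmeWT pools. In every fit tried, including those with each pool left out, Dbp, Per3, Npas2 and Nr1d1 stayed below 0.

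**Figure D4:**
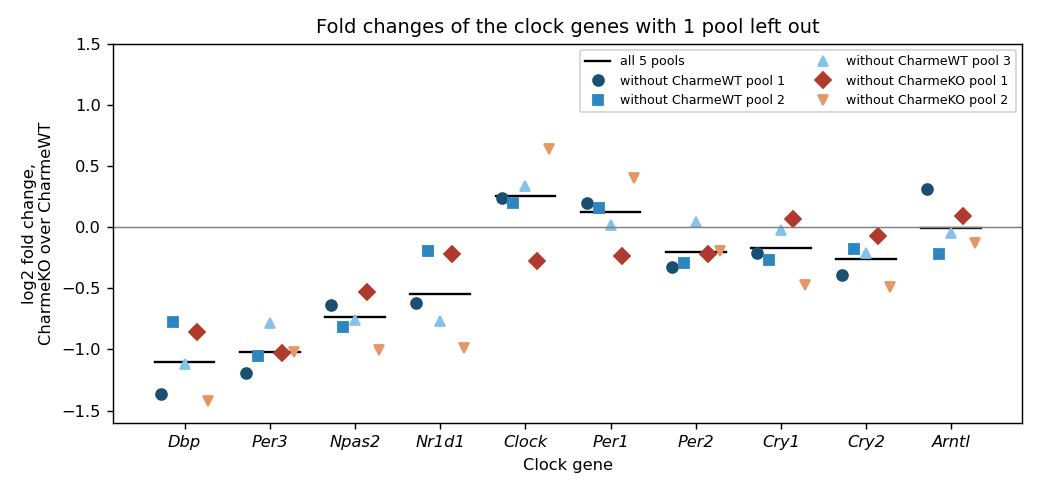
Log2 fold changes of the 10 clock genes, CharmeKO over CharmeWT, with all 5 pools (black lines) and after removal of any single pool (symbols). Dbp, Per3, Npas2 and Nr1d1 stay below 0 in each fit, while Clock is at 0.64 without CharmeKO pool 2 and at -0.28 without CharmeKO pool 1.

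Beyond the members, 24 further clock genes were examined, of which 23 could be tested. The exception was Fbxl21, a ubiquitin ligase of CRY, with 5 to 8 counts per pool. Bhlhe40 (DEC1), which represses through E-boxes, was the 1 gene called of the 23, against 2.05% of all genes. It fell from 6.49, 7.69 and 7.75 FPKM in CharmeWT pools to 3.18 and 4.52 FPKM in CharmeKO pools, a log2 fold change of -0.92 (SE 0.224, adjusted p = 0.0985). The call was lost in the legacy (0.106) and robust (0.110) forms of the test and with no filter on low counts (0.105). It was lost with the replicate block, without (0.134) or with (0.161) the length and GC correction. It was also lost without CharmeWT pool 1, 2 or 3 (0.216 to 0.449), in fits that called 2, 187 and 0 genes in all. The call was kept by the likelihood ratio test (0.0139), DESeq2 (0.00919), RLE scaling (0.0975) and the length and GC correction (0.0752). Without CharmeKO pool 1 the fold change was -0.69. The fold change ran from -1.21 to -0.69 over the fits with a pool left out. Of the 23 genes, 16 had fold changes below 0 (48.2% of all genes), 5 had both CharmeKO pools below every CharmeWT pool (18.2% of all genes) and 0 had both above (17.8%), with a median of -0.17.

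The D-box factors are relatives of Dbp and its opponent. Hlf, a PAR bZIP activator like Dbp, had 4.83, 4.67 and 6.47 FPKM in CharmeWT and 2.44 and 3.12 FPKM in CharmeKO pools, with no overlap. Its log2 fold change of -0.93 (SE 0.230) did not pass the threshold (adjusted p = 0.102), nor did it with the legacy (0.110) or robust (0.113) form of the test. It passed by the likelihood ratio test (0.0154), DESeq2 (0.00993), RLE scaling (0.0999) and the length and GC correction (0.0832). It did not pass with no filter on low counts (0.109), or with the replicate block without (0.191) or with (0.190) that correction. Nor did it pass without CharmeWT pool 1 (0.230), 2 (0.164) or 3 (0.4997), in fits that called 2, 187 and 0 genes in all. The fold change was -0.77 without CharmeKO pool 1 and -1.13 without CharmeKO pool 2. Tef, the remaining activator of that family, had 6.04, 8.82 and 9.50 FPKM in CharmeWT and 5.22 and 6.15 FPKM in CharmeKO pools, where the groups overlapped (log2 fold change -0.51, adjusted p = 0.263). Nfil3, which represses the same sites, had 16.71, 11.3 and 15.7 FPKM against 12.3 and 13.7 FPKM (log2 fold change -0.16, adjusted p = 0.713), and its wild-type values followed the order of Arntl, with pool 1 highest and pool 2 lowest.

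The receptors of the second loop act on RORE sequences. None of the 3 tested was called (2.05% of all genes) or had an unadjusted p under 0.05 (18.6% of all genes). Nr1d2, the close relative of Nr1d1, had 5.84, 9.82 and 8.87 FPKM against 8.02 and 5.02 FPKM (log2 fold change -0.33, adjusted p = 0.533). Rora, an activator, had 0.829, 0.715 and 1.09 FPKM against 1.93 and 0.514 FPKM, with the CharmeKO pools on opposite sides of the wild-type range (log2 fold change 0.46, adjusted p = 0.597). Rorb, its relative, was barely detected, at 13 to 20 counts per pool.

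Among the remaining regulators, Ciart (CHRONO), a repressor with 3 E-boxes in its window, was barely detected, with 12, 7 and 2 counts in CharmeWT and 14 and 13 counts in CharmeKO pools (log2 fold change 1.05, SE 0.656, adjusted p = 0.408). Timeless, a replication fork protein linked to the clock, had 2.19 ± 0.228 FPKM (SD, n = 3) against 1.95 ± 0.130 FPKM (SD, n = 2). None of the 12 tested enzymes that modify PER and CRY was called (2.05% of all genes), with 3 at an unadjusted p under 0.05 (18.6% of all genes) and a median log2 fold change of -0.17. The ubiquitin protease gene Usp2 had the largest, -0.57 (SE 0.238, adjusted p = 0.247), and Csnk1e, a kinase of the PER proteins, followed with -0.49 (SE 0.172, adjusted p = 0.196). The abundant Csnk2b, a subunit of casein kinase, and Ppp1cb, a phosphatase subunit, had log2 fold changes of -0.18 and 0.42, with 33.0 to 33.5 FPKM of Ppp1cb in CharmeWT pools and 56.2 and 32.5 FPKM in CharmeKO pools 1 and 2.

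**Figure D5:**
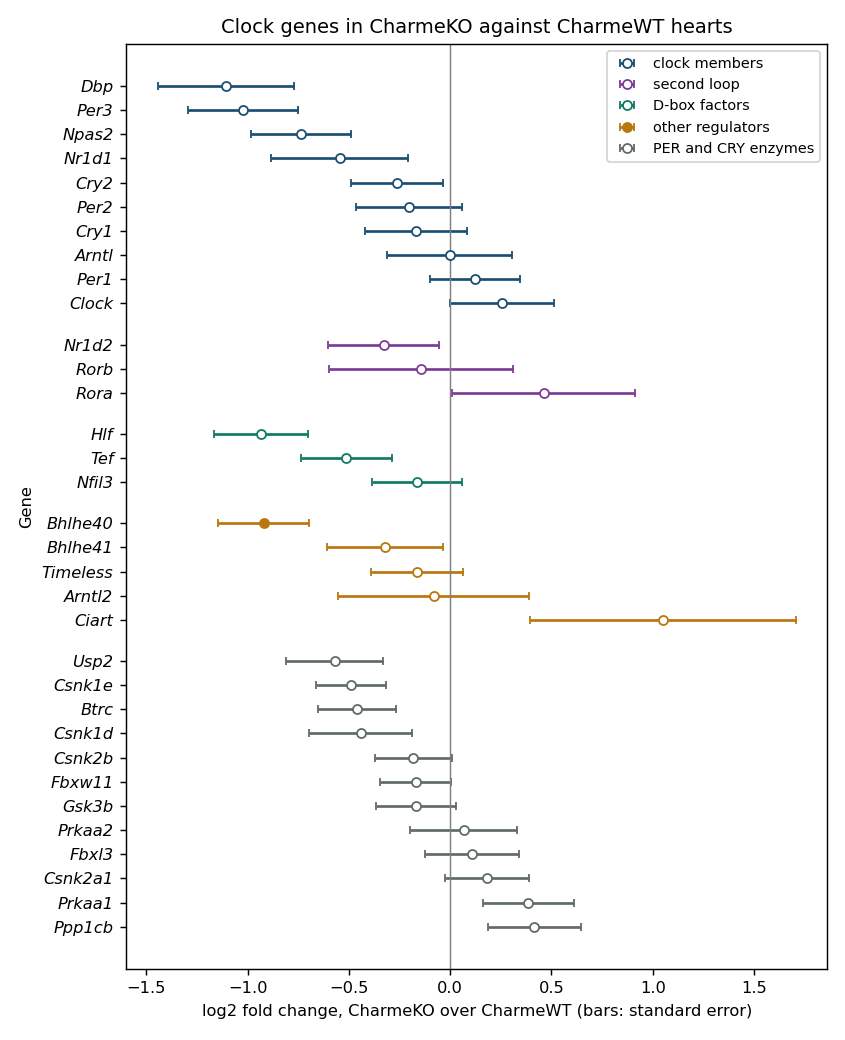
Log2 fold changes of the 10 members and 23 further clock genes, CharmeKO over CharmeWT, with bars for the standard error of the quasi-likelihood fit. Filled symbols mark genes called at an adjusted p under 0.1, which is Bhlhe40 alone at -0.92, and open symbols all others.

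Genes that can vary with time of day, stress or handling were set beside the clock. Of 11 clock-linked output genes 10 were tested, 3 had an unadjusted p under 0.05 (18.6% of all genes) and 1 was called (2.05% of all genes), Pdk4, the kinase that holds back glucose oxidation. Pdk4 fell from 95.8, 81.2 and 109.5 FPKM in CharmeWT pools to 36.2 and 35.8 FPKM in CharmeKO pools, that is, by -1.41 on the log2 scale (SE 0.194, adjusted p = 0.0336). The value was -1.40 without CharmeWT pool 1 (adjusted p = 0.127) and -1.30 without CharmeWT pool 3 (0.211), in fits that called 2 and 0 genes in all. Kcnip2, the KChIP2 subunit of the transient outward potassium channel, had 25.2 ± 5.14 FPKM (SD, n = 3) against 16.8 ± 4.51 FPKM (SD, n = 2) (log2 fold change -0.59, adjusted p = 0.235). Lpl, lipoprotein lipase, had a log2 fold change of -0.25 (adjusted p = 0.516). The median of this list was 0.08, so it did not share the direction of Pdk4.

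Of 13 tested genes linked to glucocorticoids, which include the receptor gene Nr3c1 itself, none was called (2.05% of all genes). An unadjusted p under 0.05 was found for 4 of them (18.6% of all genes), and the median log2 fold change was 0.13. Zbtb16, a target of the glucocorticoid receptor, had 1.64, 1.05 and 1.97 FPKM in CharmeWT and 4.197 and 2.30 FPKM in CharmeKO pools, without overlap (log2 fold change 1.05, SE 0.332, adjusted p = 0.165). Ddit4, an inhibitor of mTOR signalling, went the opposite way, at 40.3, 24.6 and 34.7 FPKM against 20.1 and 19.8 FPKM (log2 fold change -0.73, adjusted p = 0.161). Tsc22d3 (GILZ), a classical target, had 27.6 ± 4.23 FPKM (SD, n = 3) against 25.5 ± 1.31 FPKM (SD, n = 2) (adjusted p = 0.767). Lcn2 had the largest value, 1.20 (adjusted p = 0.228), from 127 counts in CharmeKO pool 2 against 24 to 39 counts elsewhere. That pool also held the most salivary gland RNA, and a link was not tested. The list therefore held members on both sides of 0.

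Of 8 temperature and stress responsive genes none was called (2.05% of all genes), 1 had an unadjusted p under 0.05 (18.6% of all genes) and the median was -0.04. Rbm3, a cold-induced RNA-binding protein gene, had 49.97, 71.4 and 53.8 FPKM in CharmeWT and 63.4 and 49.7 FPKM in CharmeKO pools. Egr1, an immediate early gene, had 11.9, 7.36 and 8.48 FPKM against 4.95 and 6.98 FPKM (log2 fold change -0.63, adjusted p = 0.239). Hspa8, the constitutive heat shock cognate, differed by -0.04 and Hspa1b, an inducible chaperone gene, by 0.33 on the log2 scale, both within 1 standard error.

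Likeness to Dbp was measured across the 5 pools as the root mean square distance of log2 CPM centred on the mean of each gene. The nearest genes with at least 1 FPKM were Papln at 0.137, Dchs1 at 0.141 and Fam222a at 0.168, none of which was on the lists above. Papln, an extracellular matrix protein gene, had 1.07, 2.29 and 1.86 FPKM in CharmeWT pools and 0.767 and 1.15 FPKM in CharmeKO pools, the same order as Dbp among the CharmeWT pools. Among the members the nearest to Dbp was Per3 at 0.386, followed by Nr1d1 at 0.437, and the farthest was Arntl at 0.905. Over 5 pools such distances describe these libraries and carry no test.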

How the data were processed

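Hearts were pooled before RNA extraction. Per the study's methods, the authors cleaned 150-nucleotide paired-end reads with Cutadapt and Trimmomatic (minimum length 35). STAR alignments on GRCm38 were then counted by strand over genes of Ensembl release 87. The deposited values are these raw counts. The deposited FPKM table was not used, and FPKM was computed from the counts with exon lengths of GENCODE M21 (GRCm38), to which 49411 of 49671 genes matched. A length of 1 kb stood in for 23 tested genes without a match.

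Genes that reached 10 counts in 2 or more pools were scaled by TMM and fitted for genotype with the quasi-likelihood test (newer form, 5 pools) of edgeR 4.0.16 in R 4.3.3, with limma 3.58.1, and with Benjamini-Hochberg adjustment over all 14880 genes. The study's methods name the likelihood ratio test, tried as an alternative with DESeq2 1.42.0, other forms and scalings, the replicate block, a length and GC correction (splines of 4 degrees of freedom), and each pool left out. Standard errors are the fold change over the root of F. Log2 CPM used a prior count of 0.5. The scripts were tested on simulated data. The labels do not say whether pools came from separate litters, so p-values measure the spread between these pools, and 3 against 2 pools allow no exact two-sided p below 0.1. Of the further clock genes, 1 is not reported here and stands in no count. The members and gene lists were chosen with earlier results of these data known. Named genes were all members and, of each other list, those called, the 2 most abundant and the 2 with the largest fold changes, with Charme and the 3 genes most like the member of widest range.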

Additional observations from a re-analysis of the deposited data

How the results depend on the processing

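With all 5 pools, 0 clock members were called in 9 of the 11 alternatives, the exceptions being the likelihood ratio test (2) and DESeq2 (3). The stricter threshold of 0.05 and the rule without the minimum FPKM use the main fit's adjusted p, at least 0.121 for members. They could not have called any. With a CharmeWT pool left out the count was 0, in fits that called 2, 187 and 0 genes in all. Fits without a CharmeKO pool kept 1 pool of that genotype. Their calls are left out of this section, except in the range given for the further clock genes. The upper end of that range came without CharmeKO pool 2, from the fit that called the largest share of all genes. Each fit without a CharmeWT pool called 0 of the further clock genes. Members below every CharmeWT pool numbered 3 with all pools and with RLE scaling, and 3 or 4 with a CharmeWT pool left out. With a CharmeKO pool left out they numbered 5 or 6, but then only 1 pool had to lie below, an easier rule for any gene. For the further clock genes, 1 with all pools, the count was 2 by the likelihood ratio test, DESeq2, RLE scaling and the length and GC correction, and 0 at an adjusted p under 0.05, in the legacy and robust forms, with no filter on low counts, and with the replicate block with or without that correction, and 0 to 13 with a pool left out. For the output, glucocorticoid and stress lists, 1 with all pools, the count was 4 by the likelihood ratio test and DESeq2. The shares of all genes called were again 6.27% and 7.54%. For these lists it was 2 with the replicate block, the length and GC correction or both, which called 210, 369 and 97 genes in all. With a CharmeWT pool left out it was 0 or 1. These alternatives, and those for members below every CharmeWT pool or below 0, were added after seeing the data.

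The replicate number paired only 2 pools of each genotype, and nothing in the labels says what it marks. Same-numbered pools correlated at 0.114 and 0.0576 in their deviations from the group means, which are mirrored between the 2 CharmeKO pools. Members below 0 numbered 8 with all pools, 7 with the replicate block, 5 with the length and GC correction and 4 with both. Arntl was at 0.035 with the replicate block, 0.070 with the length and GC correction and 0.089 with both, and Per2 at 0.041, 0.064 and 0.29. Per1 was at -0.015 with the block and at 0.58 with the correction, against 0.12. Cry2 was at 0.030 with the correction and 0.072 with both, and Cry1 at 0.023 with both. With a pool left out, Arntl ran from -0.22 to 0.31, Clock from -0.28 to 0.64, Per1 from -0.23 to 0.40, Per2 from -0.32 to 0.042 and Cry1 from -0.48 to 0.070. The correction brought Dbp to -0.84 and Per3 to -0.75, and the block with it to -0.76 and -0.55. The difference between the output and activator arms stayed negative, from -0.60 without CharmeWT pool 1 to -0.12 without CharmeWT pool 2. The cause of these shifts was not tested. Depth limits Ciart and Rorb, at most 20 counts per pool.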
